A study of Mus musculus with 6 samples.

Results

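The genes described here are Pax7, its paralogue Pax3, and 8 genes for proteins on the surface of muscle satellite cells: Calcr, Cxcr4, Megf10, Vcam1, Sdc3, Sdc4, Cd34 and Chodl. They were taken by symbol from the platform annotation. All 10 had exactly 1 probe set each, out of 23279 genes with a symbol, and none was removed by a filter. Expression was measured on 6 arrays of primary myoblasts of strain C57bl6N from limb muscle, 3 control cultures and 3 activated cultures. Cells of both groups carried Pax7-CreERT2, a tamoxifen-inducible Cre recombinase driven by Pax7, and 1 Ctnnb1 allele (beta-catenin) with loxP sites around exon 3. Both groups grew for 5 passages in Ham F10 with 2 ng/ml of bFGF and 20% FBS. They then differentiated for 24 hours in DMEM with 2% HS. Activated cultures received 4-hydroxytamoxifen in ethanol, which recombines the allele to a form that yields stabilized beta-catenin, and control cultures received ethanol alone. With no tamoxifen-treated culture lacking the loxP allele among these samples, recombination and tamoxifen itself cannot be told apart. For the age of the mice, the dose and the number of animals behind the cultures, nothing was found in the sources used here. Whether the Cre allele alters the Pax7 transcript is likewise not stated, and both groups carry it.

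Satellite cells are the stem cells of skeletal muscle. They lie quiescent between the fibre and its basal lamina, express Pax7, and are isolated by surface proteins such as Vcam1, Cxcr4, syndecans and Cd34. On injury they divide as myoblasts, then lose Pax7 and express Myog as they differentiate. Wnt signalling through beta-catenin is known to act on this step, and recombination in these cultures depends on cells in which Pax7 drives the Cre.

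All values are expression values as deposited, taken to be log2, so a difference of 1 is 2-fold. Array medians lay between 4.04 and 4.36, and the SD within an array between 1.72 and 2.12, with control replicates 1 and 3 the narrowest. No detection calls were used. To give an idea of dim probe sets, 1083 olfactory receptor genes were taken as mostly silent in muscle. Their 95th percentile lay between 3.86 and 4.70 on the 6 arrays. Calcr and Chodl lay under it on every array, and Cd34 on each but control replicate 2. Axin2, a feedback target of beta-catenin, was at 4.55, 3.81 and 4.58 (control replicates 1 to 3) and at 5.50, 5.85 and 6.54 (activated replicates 1 to 3). No activated array overlapped the controls for Axin2 (limma, adjusted p = 0.290). It lay under the olfactory receptor 95th percentile on every control array and above it on every activated array. In a list of 10 measured Wnt readout genes 5 were higher and 5 lower, with a median difference of -0.05 and 3 dim on every array. Ctnnb1 itself had group means of 8.52 ± 0.21 and 8.54 ± 0.54 (SD, n = 3). Which exons its probes cover was not found in the sources used, so this level was not used to check the recombination.

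Vcam1, Cd34, Pax7 and Pax3 were lower on average in activated cultures, Vcam1 2.60-fold and the other 3 between 1.41-fold and 1.54-fold. Cxcr4 and Sdc3 were somewhat higher on average with wide spread, while Sdc4, Megf10 and Chodl had means within 0.09 of each other. None of the 10 passed an adjusted p of 0.05 in limma's test, where 0% of all genes passed. The only member with an unadjusted p under 0.05 was Vcam1, 1 of 10 against 7.86% of all genes. In 3 of 10 members (Vcam1, Cd34 and Calcr) all activated values were below all control values, against 7.4% of all genes, and in 0 of 10 the reverse held, against 5.4%. The count of 3 became 5, with Pax7 and Pax3 added, without control replicate 1 (10.5% of all genes) or without activated replicate 3 (14.0%). It was 2 after median centring (4.68%), where Calcr overlapped. Without activated replicate 3 both remaining activated arrays lay above the controls for Cxcr4, 1 of 10 against 11.0% of all genes. The median difference of the 10 members was -0.16, and that of all genes -0.08. After quantile normalization these were -0.31 and -0.01, and after median centring -0.03 and 0.04.

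**Figure D1:**
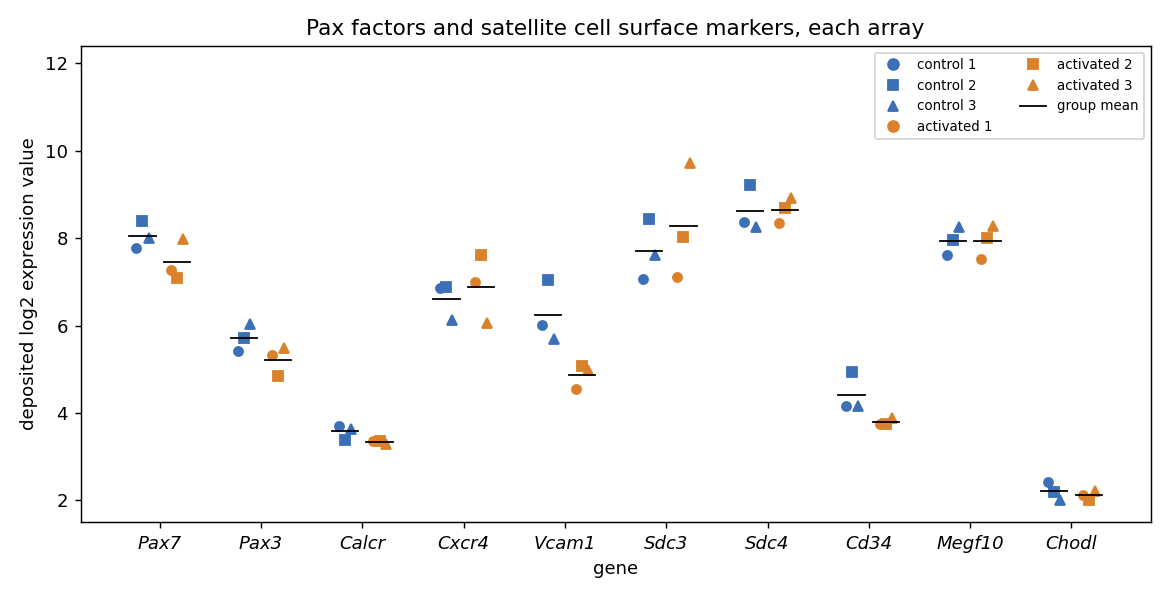
Deposited log2 expression value of the 10 genes on each array; circles, squares and triangles are replicates 1, 2 and 3, blue for control and orange for activated, and short lines are group means. The activated arrays lie below all control arrays for Vcam1, Cd34 and Calcr, the last by a narrow gap (3.36 against 3.39), and the groups overlap for the other 7 genes.

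The RefSeq table of promoters (GRCm38.p6) held 8 windows for 7 of the 10 genes, with Pax3, Vcam1 and Megf10 not among them. In the 250 bases before each start, the core motif of the TCF/LEF partners of beta-catenin, CTTTGA on either strand, and the E-box of myogenic bHLH factors, CANNTG, were searched. The first was found before 1 gene, Chodl, 138 bases from the start, and in 13.8% of all 32851 windows. The E-box was found before Chodl (4 times) and in 1 of the 2 windows of Calcr, and in 66.2% of all windows. No motif in Chodl overlapped another. A match describes letters in this window and not a bound site. The windows of 3 genes are shown 5′ to 3′ with both motifs in capitals: Pax7 (chr4:139832969-139833218, minus strand), whose control drives the Cre, Cd34 (chr1:194938571-194938820, plus strand), whose groups did not overlap, and Chodl (chr16:78930698-78930947, plus strand), the 1 with a TCF/LEF core.
Pax7: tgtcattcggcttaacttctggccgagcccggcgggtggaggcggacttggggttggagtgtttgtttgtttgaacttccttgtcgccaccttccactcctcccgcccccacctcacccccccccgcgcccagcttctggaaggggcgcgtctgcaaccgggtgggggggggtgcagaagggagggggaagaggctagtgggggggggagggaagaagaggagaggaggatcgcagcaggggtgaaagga
Cd34: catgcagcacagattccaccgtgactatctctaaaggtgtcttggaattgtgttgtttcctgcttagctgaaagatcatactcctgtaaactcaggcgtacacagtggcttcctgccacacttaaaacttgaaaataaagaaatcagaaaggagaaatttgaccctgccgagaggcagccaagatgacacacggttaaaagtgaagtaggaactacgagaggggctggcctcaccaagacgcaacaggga
Chodl: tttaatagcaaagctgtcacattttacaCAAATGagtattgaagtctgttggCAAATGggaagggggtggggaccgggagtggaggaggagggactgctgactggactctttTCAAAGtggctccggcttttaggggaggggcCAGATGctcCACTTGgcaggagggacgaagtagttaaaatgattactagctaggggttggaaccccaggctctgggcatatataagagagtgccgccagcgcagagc
The windows of Pax7 and Cd34 hold neither motif. Chodl, whose window holds both, was dim in both groups.

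The transcription factors come first. Pax7, which specifies and maintains satellite cells, was at 7.77, 8.39 and 8.00 (control replicates 1 to 3) and at 7.28, 7.08 and 7.99 (activated replicates 1 to 3). Activated replicates 1 and 2 were below every control, while activated replicate 3 lay within the control range. The difference was -0.60 ± 0.31 (SE; 95% interval -1.33 to 0.12; limma, adjusted p = 0.688). By matching number the differences were -0.48 and -1.32 in pairs 1 and 2 and -0.01 in pair 3. Rescaling by distribution enlarged the difference of Pax7, and median centring gave -0.48. After repeated quantile normalization it was -0.90, with control arrays at 8.00 to 8.41 and activated arrays at 6.77 to 7.91, and after cyclic loess it was -0.94. With 1 array left out it ran from -0.42 (without activated replicate 2) to -0.87 (without activated replicate 3).

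Pax3, which acts in embryonic muscle progenitors and in a part of adult satellite cells, was at 5.41, 5.71 and 6.03 in control and at 5.32, 4.85 and 5.48 in activated cultures. The groups overlapped only through control replicate 1 and activated replicate 3. The difference was -0.50 ± 0.27 (SE; 95% interval -1.13 to 0.14; limma, adjusted p = 0.695), and all 3 pairs were lower. After quantile normalization the difference was -0.57 and the Pax3 groups no longer overlapped. With quantile normalization 4 of 10 members (Pax7, Pax3, Vcam1 and Cd34) had every activated array below every control array, against 6.31% of all genes. Over the 6 arrays Pax7 and Pax3 correlated at 0.81 as deposited and at 0.90 after quantile normalization, a description that includes the group difference and the shared arrays.

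Genes known to work with the Pax factors or to depend on them were described by a list of 22 measured genes. None passed in limma, and 11 were higher and 11 lower (7 to 16 lower after rescaling), where 59.7% of all genes were lower as deposited. The median difference was 0.00 against -0.08 for all genes (-0.11 against -0.01 after quantile normalization). Paxbp1, which links Pax7 to histone methylation, was at 7.26 ± 0.62 (SD, n = 3) in the control group and at 6.72 ± 0.28 in the activated group. Ash2l, a subunit of that methyltransferase complex, differed by 0.28 ± 0.26 (SE; 0.00 after quantile normalization). The transcriptional co-activator Eya2 differed by -0.68 ± 0.32 (SE), Nfix, a factor of fetal muscle, by 0.50 ± 0.32 (0.19 after quantile normalization), and the ubiquitin ligase Trim32 by 0.98 ± 0.41. The homeobox gene Meox2 differed by -0.67 ± 0.26 and was dim on all arrays. Myf5, a direct target of Pax7 named here outside the naming rule with its values known, was at 4.66 ± 0.62 (SD, n = 3) and 5.04 ± 0.37. Pax7 was lower and Myf5 higher on average, neither past the test.

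Among the surface genes Vcam1 differed most. Vcam1 encodes an immunoglobulin-family adhesion molecule that binds integrin alpha4 beta1 and is widely used to sort satellite cells. It was at 6.01, 7.04 and 5.68 (control replicates 1 to 3) and at 4.55, 5.07 and 4.97 (activated replicates 1 to 3). All 3 activated arrays lay below the lowest control, and control replicate 2 stood above the others. The difference was -1.38 ± 0.38 (SE; 95% interval -2.26 to -0.50), with the 417th smallest p of 23279 genes (limma, unadjusted p = 0.00716, adjusted p = 0.400). It was lower in all 3 numbered pairs (-1.46, -1.98 and -0.71). Rescaling moved it little, to -1.47 after quantile normalization and -1.45 after cyclic loess, and it lay between -1.66 and -0.98 with 1 array left out, nearest to 0 without control replicate 2. When the fit was blocked on the replicate number, 31 genes (0.133%) passed in all, 0 of the members among them, and Vcam1 had an adjusted p of 0.112. The blocked fit without pair 3 gave 501 genes and 1 member, Vcam1 (limma, difference -1.72, adjusted p = 0.0301).

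The 2 chains of the Vcam1 receptor went the other way on average. Itgb1, the beta1 integrin chain of myoblasts, was at 9.38, 9.11 and 8.28 in control and at 9.85, 10.24 and 9.97 in activated cultures. No activated array overlapped the controls, and the difference was 1.10 ± 0.32 (SE; limma, adjusted p = 0.433; 0.70 after quantile normalization). Itga4, the alpha4 chain, was outside the naming rule and chosen for its role after values were seen. It was at 5.26, 5.05 and 3.92 in control and at 5.65, 5.63 and 4.63 in activated cultures, with overlapping groups. The sheddase Adam17, chosen likewise, differed by -0.16 ± 0.27 (SE).

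Cd34 encodes a sialomucin of quiescent satellite cells that is also found on endothelium and fibro-adipogenic progenitors. It was at 4.16, 4.94 and 4.15 in control and at 3.75, 3.75 and 3.88 in activated cultures. The activated arrays lay close together below all controls, and control replicate 2 was the highest. Only on that array did Cd34 lie above the olfactory receptor 95th percentile, so it was dim on all activated arrays. The difference was -0.62 ± 0.27 (SE; 95% interval -1.26 to 0.01; limma, unadjusted p = 0.0536, adjusted p = 0.634). With the replicate block 2 of 10 members, Vcam1 and Cd34, had an unadjusted p under 0.05, against 16.6% of all genes. Without control replicate 2 the difference of Cd34 was -0.36. The groups still did not overlap after quantile normalization (-0.42), but they did after cyclic loess (-0.45). Cd34 and Vcam1 correlated at 0.96 over the 6 arrays (0.84 after quantile normalization), both with control replicate 2 on top. Of the related sialomucins, Podxl differed by -0.51 ± 0.21 (SE) and Podxl2 by 0.38 ± 0.22, 2 genes outside the naming rule, picked with their values known. Podxl was dim on all activated arrays, and both genes were dim on control replicates 1 and 3.

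Vcam1 and Cd34 are shared with other cells that a muscle culture can hold, so the marker lists of those cells are given beside them. As deposited, 59.7% of all genes tested were lower in activated cultures, so counts of lower markers as deposited are to be read against that share. The share of all genes lower after rescaling is not given here. The median difference of all genes was then -0.014 (quantile normalization), -0.003 (cyclic loess) and 0.043 (median centring). Summed on the linear scale, 12 endothelial markers came to 129 to 147 in control and 105 to 125 in activated cultures. Of these 10 were lower (9 after each of the 3 rescalings), and 10 lay under the olfactory receptor 95th percentile on every array, among them Pecam1, Cdh5 and Kdr. The 13 measured fibroblast and fibro-adipogenic markers summed to 339 to 487 in control and 253 to 498 in activated cultures, with 10 lower and 7 dim on every array, Pdgfra among them. After rescaling 4 to 8 of the 13 were lower. The 12 leukocyte markers summed to 176 to 349 and 159.6 to 241, with 10 lower (8 after each rescaling) and 7 dim on every array, Ptprc among them. The 10 smooth muscle and pericyte markers summed to 1029 to 2308 and 1062 to 2105, with 6 lower (3 or 4 after rescaling). Myh11, Cnn1 and Kcnj8 were dim on every array. The 6 measured Schwann cell and glia markers summed to 97.0 to 165 and 74.5 to 93.1, with 6 lower (5 after each rescaling). Sox10 and Ngfr were dim on every array. The part of such cells in the values of Vcam1 and Cd34 was not tested, and fewer cells of a type cannot be told apart from less RNA per cell.

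Cxcr4, the receptor of the chemokine Cxcl12 that guides migrating muscle precursors, was at 6.86, 6.88 and 6.12 in control and at 7.00, 7.60 and 6.07 in activated cultures. The arrays numbered 3 were the lowest of both groups. The difference was 0.27 ± 0.42 (SE; 95% interval -0.72 to 1.26; limma, adjusted p = 0.858), 0.03 after quantile normalization and -0.09 without activated replicate 2. Its ligand Cxcl12 was at 7.75, 8.03 and 6.85 in control and at 5.70, 6.30 and 6.49 in activated cultures. For Cxcl12 no activated array reached the lowest control, and the difference was -1.38 ± 0.37 (SE; 2.60-fold lower; limma, adjusted p = 0.390; -1.60 after quantile normalization). The difference was smallest in size in pair 3, at -0.37 against -2.05 and -1.73. The scavenging receptor Ackr3, outside the naming rule and chosen for its role after values were seen, overlapped fully, at 7.64 ± 0.74 (SD, n = 3) and 7.77 ± 0.43.

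Calcr, the calcitonin receptor, marks quiescent satellite cells and is known to be lost when they are activated to divide. It was dim on every array, at 3.70, 3.39 and 3.64 in control and at 3.36, 3.36 and 3.30 in activated cultures. The groups parted narrowly as deposited and overlapped after median centring, quantile normalization and cyclic loess. The difference was -0.24 ± 0.20 (SE; limma, adjusted p = 0.766) and -0.06 after quantile normalization. Calcb, which encodes the peptide beta-CGRP of the calcitonin family, was at 4.24, 3.83 and 4.54 in control and at 5.59, 8.74 and 8.86 in activated cultures. Calcb had the largest difference among the 39 measured ligands and partners, 3.52 ± 0.82 (SE; 11.5-fold higher; limma, adjusted p = 0.325), with activated replicate 1 far below the other activated arrays. On every control array Calcb lay under the olfactory receptor 95th percentile, so its fold is taken from a dim control level. Ramp1, which joins a calcitonin-type receptor to bind CGRP, was at 4.38 ± 0.12 (SD, n = 3) and 4.56 ± 0.44. The collagen V chains, whose protein is described as a ligand of Calcr, gave -0.01 ± 0.51 (SE) for Col5a1, -0.69 ± 0.51 for Col5a2 and -0.05 ± 0.25 for Col5a3. Ramp1 and the collagens were outside the naming rule and chosen for their roles after values were seen.

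**Figure D2:**
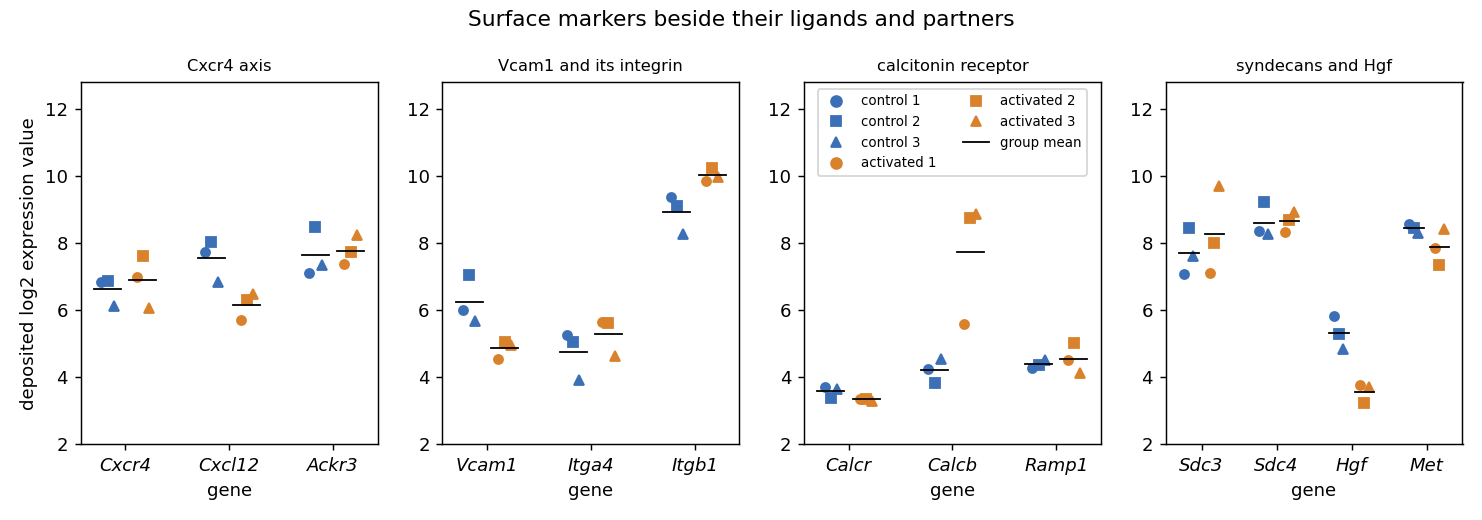
Deposited log2 expression value on each array for Cxcr4, Vcam1, Calcr, Sdc3 and Sdc4 beside ligands and partners of each; colours, symbols and lines are as in the plot of the 10 genes. Cxcl12 and Hgf lie lower and Itgb1 and Calcb higher on every activated array than on every control array, while Cxcr4, Sdc3, Sdc4 and Met overlap.

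The syndecans Sdc3 and Sdc4 are heparan sulphate proteoglycans that present growth factors such as Hgf and Fgf2 to their receptors on satellite cells. Sdc3 was at 7.07, 8.44 and 7.61 in control and at 7.11, 8.02 and 9.72 in activated cultures. Activated replicate 3 alone lay above the control range. The pooled SD of Sdc3 was at the 96.6th percentile of all genes, and the difference of 0.58 ± 0.66 (SE; 95% interval -0.97 to 2.12; limma, adjusted p = 0.813) became -0.14 without that array. Sdc4 was at 8.36, 9.22 and 8.27 in control and at 8.34, 8.69 and 8.93 in activated cultures, fully overlapping. Its difference was 0.04 ± 0.32 (SE; 95% interval -0.71 to 0.78; limma, adjusted p = 0.974), with the sign turned after quantile normalization (-0.30) and cyclic loess (-0.38). It was also negative without control replicate 1 (-0.09), control replicate 3 (-0.14) or activated replicate 3 (-0.10). Over the 6 arrays Sdc3 and Sdc4 correlated at 0.75 (0.59 after quantile normalization).

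Of the factors that syndecans present, Hgf, the growth factor that activates satellite cells through Met, was at 5.83, 5.29 and 4.84 in control and at 3.78, 3.22 and 3.72 in activated cultures. Every activated array lay over 1 unit below the lowest control, and Hgf had the smallest p of the list of ligands and partners. Hgf lay under the olfactory receptor 95th percentile on every activated array and above it on every control array, so it was dim in activated cultures. Its difference was -1.75 ± 0.31 (SE; 3.36-fold lower; limma, adjusted p = 0.232; -1.68 after quantile normalization). The receptor Met was at 8.44 ± 0.13 (SD, n = 3) and 7.88 ± 0.53, Fgf2 at 5.55 ± 0.30 and 5.28 ± 0.22, and the receptor Fgfr1 at 7.20 ± 0.03 and 6.86 ± 0.54. The related Sdc1 differed by -0.67 ± 0.41 (SE) and Sdc2 by 1.34 ± 0.62, with control replicate 3 lowest for Sdc2 at 5.27. These 5 genes were outside the naming rule and chosen for their roles after values were seen.

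Megf10, a transmembrane protein with EGF repeats that supports satellite cell proliferation, was at 7.61, 7.96 and 8.25 in control and at 7.53, 8.01 and 8.29 in activated cultures. The arrays had the same order in both groups, and the numbered pairs differed by -0.08, 0.05 and 0.04. The difference was 0.00 ± 0.29 (SE; 95% interval -0.67 to 0.67; limma, adjusted p = 0.998). After quantile normalization it was -0.31 and after cyclic loess -0.35, so its direction depended on the scaling. It was also negative without control replicate 1 (-0.16), activated replicate 2 (-0.03) or activated replicate 3 (-0.17). Chodl, a membrane protein with a C-type lectin domain found in quiescent satellite cells, was at 2.42, 2.20 and 2.01 in control and at 2.12, 2.02 and 2.22 in activated cultures. Chodl was dim on every array with overlapping groups, and its difference of -0.09 ± 0.21 (SE; limma, adjusted p = 0.909) was 0.00 after quantile normalization, 0.04 after median centring and 0.02 after cyclic loess. Without control replicate 1 it was 0.02. Layn, which encodes the related membrane lectin layilin, was at 7.74, 7.37 and 6.55 in control and at 5.86, 6.09 and 6.43 in activated cultures, a difference of -1.10 ± 0.34 (SE; limma, adjusted p = 0.478).

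**Figure D3:**
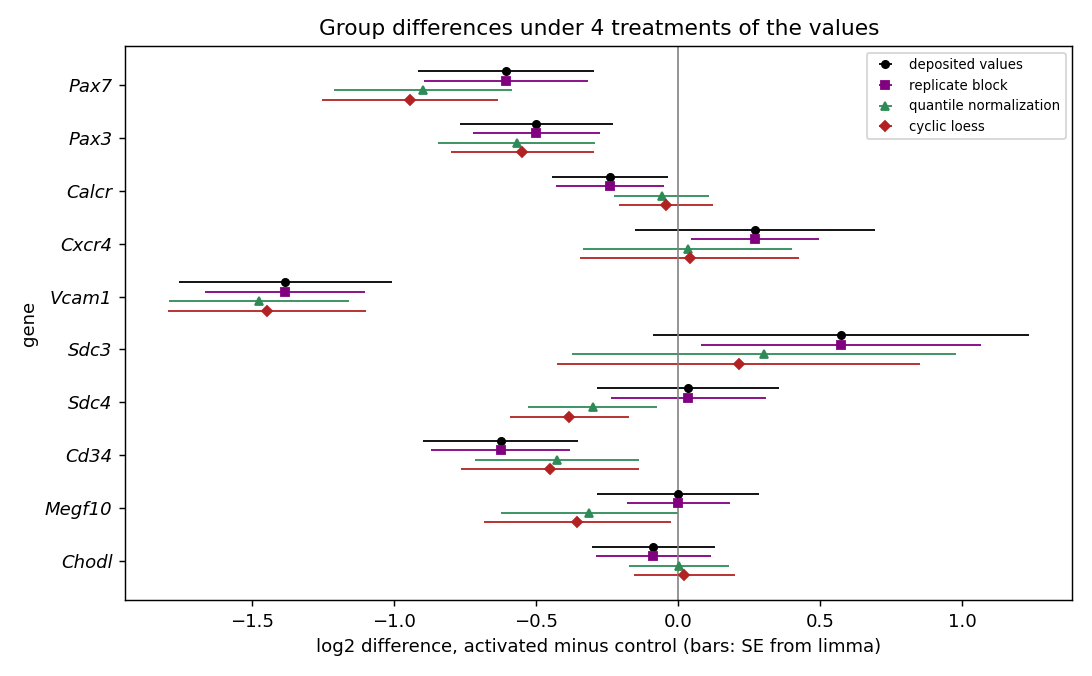
Log2 difference, activated minus control, of the 10 genes as deposited, with the replicate block, after quantile normalization and after cyclic loess; bars are limma's SE. Vcam1, Pax7, Pax3, Cd34 and Calcr are below 0 in all 4, whereas Sdc4, Megf10 and Chodl change sign with the scaling.

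The 39 measured ligands and partners had 0 members past the test, 14 higher and 25 lower (21 to 28 lower after rescaling). The share lower as deposited was 64.1%, against 59.7% of all genes. Their median difference was -0.18 against -0.08 for all genes. After quantile normalization these medians were -0.22 and -0.01, and after median centring -0.05 and 0.04. Groups did not overlap for 4 of these genes higher and 6 lower (5.4% and 7.4% of all genes). The adaptor Crkl completed the 3 higher genes with the smallest p, at 1.08 ± 0.34 (SE; limma, adjusted p = 0.485). Genes of quiescence and activation outside the 10 numbered 48 measured, with 0 past the test. They split into 22 higher and 26 lower (20 to 25 lower after rescaling), 54.2% lower against 59.7% of all genes. Their median was -0.04 (0.01 after quantile normalization). In 8 of the 48 all activated arrays lay above the controls and in 4 below, against 5.4% and 7.4% of all genes. The 4 were near the share of all genes and the 8 above it. Higher on average were Dmd, which encodes dystrophin, a polarity regulator of satellite cells and a structural protein of fibres, at 5.50 ± 0.10 (SD, n = 3) and 7.87 ± 0.99, the intermediate filament gene Des at 9.29 ± 0.52 and 10.85 ± 0.51, and M-cadherin, Cdh15, at 6.54 ± 0.34 and 7.58 ± 0.39. These 3 are also expressed in differentiating muscle. Lower on average were the receptor Fgfr4, at 5.49 ± 0.20 and 4.34 ± 0.16, and the regulators of G-protein signalling Rgs4, at 5.86 ± 0.22 and 4.66 ± 0.64, and Rgs5, at 9.58 ± 0.90 and 7.80 ± 0.83. Rgs5 is also a pericyte marker. Adjusted p of these 6 genes lay between 0.252 and 0.473 (limma).

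**Figure D4:**
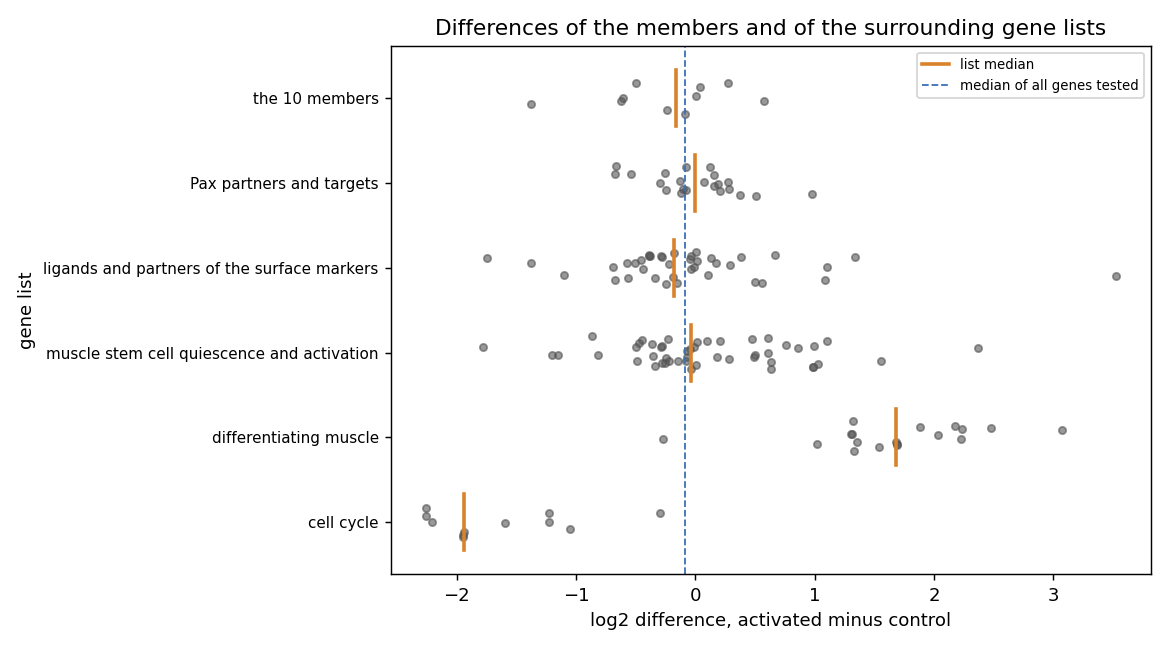
Log2 difference, activated minus control, of each gene in 6 lists; points are genes, orange lines list medians and the dashed line the median of all genes tested (-0.08). The 10 genes and the 3 lists around them straddle 0, while differentiating muscle genes lie higher (median 1.68) and cell cycle genes lower (median -1.94).

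Markers of the state of the cultures are given beside these values. Of 18 markers of differentiating muscle 17 were higher, and their summed linear level was 3644 to 11385 in control and 16751 to 35815 in activated cultures. All 11 measured cell cycle markers were lower, against 59.7% of all genes as deposited. They were lower also after each rescaling, with sums of 2025 to 4051 and 885 to 1623. None of these passed in limma without the block, and with it the muscle genes Mef2c and Actn2 passed, both higher. With quantile normalization and the block 0 of all genes passed, so both calls were lost. The genes whose profile over the 6 arrays was most like that of Vcam1, among 11640 genes at or above the median level, were Pbk, a mitotic kinase (r = 0.99), Skp2, a ubiquitin ligase subunit that promotes entry into S phase (r = 0.99), Cdca5, a cohesin regulator (r = 0.99), and Dck, a nucleoside kinase (r = 0.98). The same 4 ranked in the first 4 after quantile normalization. Pbk was at 6.28, 7.82 and 5.69 in control and at 4.62, 5.05 and 5.10 in activated cultures, with control replicate 2 on top as for Vcam1. For Pax7 they were Kif20a, a mitotic kinesin (r = 0.996), Nhlrc4, the stress kinase Eif2ak3 and the RNA-binding protein Hnrnpd (each r = 0.99), which ranked 30, 211, 1187 and 5 in that order after quantile normalization. Kif20a was at 5.81, 6.84 and 6.29 in control and at 4.74, 4.47 and 6.07 in activated cultures, with activated replicate 3 near the controls as for Pax7. For Sdc4 they were Nt5dc2, Edil3, 1500011B03Rik and Cda (each r = 0.98), which correlated at 0.37 to 0.79 after quantile normalization. The points share arrays, array spread and the group difference, so these values are descriptions. The part of differentiation state in the levels of the 10 genes was not tested.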

How the data were processed

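Gene expression was measured on 6 arrays, 3 control and 3 activated, grouped by sample title. The deposited table holds log2 values per gene probe set, and RMA and Partek are named, with no version or role, in the submitters' processing notes. The array design and build were not found in the sources used here. Of 24479 probe sets 23281 had 1 symbol, 0 several and 1198 none. For 2 symbols with several probe sets the brighter was used, leaving 23279 genes. limma 3.58.1 in R 4.3.3 fitted group alone, with two-sided moderated tests and Benjamini-Hochberg adjustment over all genes. The code was tested on simulated data. Of 50 genes planted at each size, 2% of 2-fold and 86% of 4-fold changes passed, and 15 unchanged genes were called. Changes of 2-fold thus mostly did not pass in the simulation. The simulated noise was normal and independent between genes and arrays, with limma's moderated variance and no shift shared by an array. The shares recovered therefore need not hold for the real arrays. No filter was applied. The number of arrays limits the precision.

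Labels state independent cultures and name no separate animals. The p-values measure only the spread between cultures. Deviations from group means correlated at 0.38, 0.49 and 0.45 between same-numbered arrays. The labels name no pairing, and differently numbered arrays were not compared, so these values cannot settle whether cultures were paired. A fit blocked on the numbers in the titles was an alternative. Others were quantile normalization, median centring, cyclic loess, a filter on dim genes, limma with trend and robust moderation, array weights, and arrays left out. Whether groups overlap under these settings was added after seeing the data.

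The members and lists were chosen with earlier results of these data known. Named are the 10 members, 3 higher and 3 lower genes with the smallest p from the lists of Pax partners, of ligands and partners, and of quiescence and activation, Axin2, Ctnnb1, and the 4 genes most correlated with Pax7, Vcam1 and Sdc4. Some genes of the lists are not reported here. Of the 10 measured Wnt readout genes 5 were higher and 5 lower. "After rescaling" means quantile normalization, cyclic loess and median centring. RefSeq held all 10 members by Entrez number with the same symbol.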

Additional observations from a re-analysis of the deposited data

How the results depend on the processing

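Vcam1, Pax7, Pax3, Cd34 and Calcr were lower in activated cultures under every setting in which they were fitted, and Calcr, Cd34 and Chodl were left out by the filter on dim genes. With single arrays left out, Pax7 ranged from -0.87 to -0.42, Pax3 from -0.65 to -0.31, Cd34 from -0.75 to -0.36 and Calcr from -0.33 to -0.18. With pairs left out of the blocked fit the ranges were -0.90 to -0.25 for Pax7 (nearest to 0 without pair 2), -0.70 to -0.32 for Pax3, -0.80 to -0.34 for Cd34, -0.34 to -0.18 for Calcr and 0.047 to 0.43 for Cxcr4. Cxcr4 ranged from -0.086 to 0.68, Sdc3 from -0.14 to 1.16 and from -0.19 to 1.07 with pairs left out of the blocked fit, Sdc4 from -0.14 to 0.34 and from -0.28 to 0.32, Megf10 from -0.17 to 0.21 and from -0.023 to 0.044 (-0.016 without pair 3), and Chodl from -0.19 to 0.020 and from -0.24 to 0.018. Vcam1 ranged from -1.72 to -1.08 with pairs left out. The sign turned for Sdc4 (-0.30 after quantile normalization, with or without the replicate block, and -0.38 after cyclic loess), for Megf10 (-0.31 and -0.35) and for Chodl (0.0048 after quantile normalization, with or without the replicate block, 0.023 after cyclic loess and 0.042 after median centring); the cause was not tested. All genes past the test numbered 0 as deposited and 31 with the replicate block, but 0 with quantile normalization and the replicate block (0 to 28 with 1 array left out, the 28 without activated replicate 3, and 0 to 501 with a pair left out of the blocked fit). Members past it numbered 0 to 1. Members at an unadjusted p under 0.05 numbered 1 as deposited (7.86% of all genes), 2 with the replicate block (16.6%), 2 after quantile normalization (7.60%), after cyclic loess (7.92%), with trend and robust moderation (7.57%) and with array weights (7.32%), and 3 with quantile normalization and the replicate block (13.8%). They ranged from 1 to 2 with 1 array left out (3.90% to 13.2%) and from 1 to 3 with a pair left out (12.0% to 15.2%). Members lying below the controls on every activated array numbered 2 after median centring (4.68%), 4 after quantile normalization (6.31%), 3 after cyclic loess (6.13%) and 1 with the filter on dim genes (6.13%), which tests fewer genes, and ranged from 3 to 5 with 1 array left out (9.20% to 22.4%). Members lying above ranged from 0 to 1 (7.47% to 12.2%). The replicate block changed no member's call over all genes. With 3 arrays a group, dim signals such as those of Calcr, Chodl and Cd34 limit what can be seen.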
